A study of Homo sapiens with 6 samples.

Results

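The late phase of a FOXA1 degradation time course was described by comparing the 2 chromatin accessibility libraries of 22Rv1 cells labelled 24 h with the 2 labelled 1 h. 22Rv1 is an established human prostate cancer cell line. All libraries carry the label FOXA1_dTAG, which names a degradation tag on FOXA1, and differ in the labelled time: 0 h, 1 h or 24 h, with 2 libraries each. No library is labelled as untagged or as an untreated control of the same time. Loss of FOXA1 therefore cannot be told apart here from time in culture, exposure to the degrader or library preparation. The labels give neither the degrader molecule, its dose, the clone, nor whether replicates were separate cultures, so replicate spread here may be technical. The amount of FOXA1 protein was not measured here, and peak lists hold no marker genes against which the cell line could be checked. The peaks of the 4 lists on the 22 autosomes and X were joined into 147524 regions, 1 bp of overlap being enough to join. Merging all 6 lists of the series in the same way gave 167726. The 0 h libraries served only to set regions that already differed between 0 h and 1 h apart from the others.

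FOXA1 is a forkhead transcription factor known as a pioneer factor: it can bind its motif on nucleosomal DNA and help open enhancers for other factors. In prostate cells it is best known for working with the androgen receptor. ATAC-seq inserts sequencing adapters into accessible DNA with a transposase, so a peak marks a stretch that is open in many of the cells, typically a promoter or an enhancer. A degradation tag lets a small molecule direct a protein to the proteasome, so that a comparison soon after addition is separated from one made after cells have had time for secondary changes.

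At 1 h the replicates listed 110661 and 117942 peaks, and the corresponding numbers at 24 h were 101755 and 114362. The 24 h counts overlap the range at 1 h, and the difference of -6243 had p = 0.667 in an exact two-sided permutation test. Peaks covered 57.7 and 55.9 Mb at 1 h but 46.0 and 48.6 Mb at 24 h, and the median peak was 416 and 370 bp wide at 1 h but only 341 and 327 bp at the later time. Both measures were lower in each 24 h library than in either 1 h library (56.8 ± 1.28 against 47.3 ± 1.82 Mb and 393 ± 32.5 against 334 ± 9.90 bp, SD, n = 2; exact two-sided permutation p = 0.333 for both, the smallest that 2 against 2 libraries allow). The depth that the lists imply moved in the same direction. It was estimated as the most common background divided by the shortest peak length, and was not measured. The estimate was 8.14 and 8.62 tags per kb in the 1 h pair, against 7.33 and 7.04 for the 24 h pair. Minimum peak length, which follows the fragment length set in peak calling, was 172 and 160 bp in the 1 h pair and 147 and 136 bp in the 24 h pair. The part of depth and fragment length in the narrower coverage was not tested. Peak strength was therefore compared as the percentile of a peak's fold enrichment within its own list, where 100 is the strongest peak.

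Most open chromatin was shared by the 2 times. Of the 147524 regions, 77985 (52.9%) held a peak in all 4 lists and are called kept. A further 6104 held a peak in both 1 h lists and in neither 24 h list and are called lost, which is 6.46% of the 94497 regions open in both 1 h lists. In the other direction, 3374 held a peak in both 24 h lists and in neither 1 h list and are called gained, 3.87% of the 87287 regions open in both 24 h lists. The remaining regions were found in 1 list of a time only, 8920 and 10809 of them in a single 1 h list and 4732 and 10412 in a single 24 h list. Single-list regions are thus more numerous than lost or gained ones, and presence turned over between replicates as well as between times. The excess of losses over gains (1.81 to 1) came to 1.17 to 1 when all lists were shortened to one length, 4709 lost against 4018 gained. It turned round without 24 h replicate 1, the shortest list, with 9455 lost and 13786 gained.

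Losses and gains both lay among weak regions. Lost regions had a median percentile of 19.7 and 24.7 in the 1 h libraries, where kept regions stood at 64.6 and 66.5. Gained regions stood at 23 and 24.6 in the 24 h libraries, against 61.2 and 65.4 for kept ones. Lost peaks were also narrow, with median widths of 267 and 241 bp against 521 and 499 bp for kept regions in the same libraries. In steps of 10 percentile points of 1 h strength, the share lost was 20.8% in the weakest step, 26.1% from 10 to 20, 12.1% from 30 to 40 and 1.87% from 50 to 60. No region above 80 was lost. The share gained followed the same course with 24 h strength, from 11.8% in the weakest step and 13.7% from 10 to 20 down to 0.172% from 70 to 80. A stricter rule set a strong peak in both libraries of one time, with a −log10 q of at least 10, against no peak in either library of the other. By this rule 46 regions were lost, 0.0914% of the 50303 regions strong at 1 h. By the same rule 69 were gained, 0.15% of the 45905 strong at 24 h. The rule leaves out regions that weakened but kept a peak. Among kept regions, 3207 were strong in both 1 h libraries and in neither 24 h library, and the reverse was not counted. In total 49932 kept regions were strong in both 1 h libraries and 45597 in both 24 h libraries. A q value depends on depth, and the part of the lower implied depth at 24 h in these counts was not tested.

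**Figure D1:**
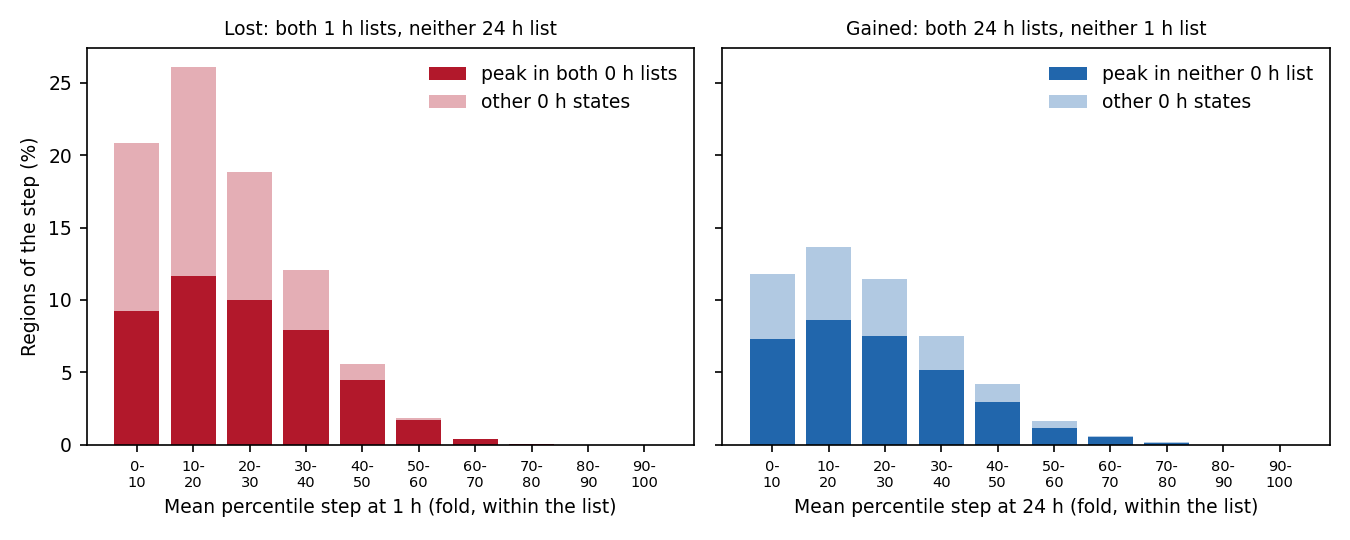
Share of regions lost (left, of those in both 1 h lists) or gained (right, of those in both 24 h lists) by step of mean within-list percentile of fold, with the dark part of each bar showing regions with a peak in both 0 h lists (left) or in neither (right). The share lost is highest at 26.1% in the step from 10 to 20 and the share gained at 13.7% in the same step, and both are under 1% above 60.

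The 0 h libraries divided the lost regions into 3 histories. Of the 6104, 3442 (56.4%) held a peak in both 0 h lists, 1554 (25.5%) in one and 1108 (18.2%) in neither. Among all 94497 regions open in both 1 h lists, 88.4% were in both 0 h lists and 3.92% in neither. The 1108 regions were called in both 1 h lists and in none of the other 4. They were weak, with medians of 9 and 10 tags at the 1 h summits, so a missing call at 0 h or 24 h does not show that they were closed. Among weak regions the lost ones were less often in both 0 h lists than all regions of the same 1 h strength, 44.4% against 68.9% in the weakest step and 44.7% against 59.6% from 10 to 20. From 60 to 70 the shares were 97.9% of the 48 lost and 98.6% of all. All 46 strong losses were in both 0 h lists, as were 99.7% of all 50303 that passed the strong rule at 1 h, and 31 of the 46 were strong in both 0 h libraries.

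Many of the 3442 late losses that dated from 0 h ranked lower at 1 h than at 0 h before they were lost. Their median percentile was 41.9 and 40.8 in the 0 h libraries and 28.0 and 28.0 in the 1 h libraries, before no peak was called at 24 h. Losses were weak at 1 h as a class, so only the shares at matched 1 h strength below set them beside kept regions. The share of them that was strong was 39.0% and 31.2% at 0 h, then 4.56% and 6.01% at 1 h. In 1638 (47.6%) both 1 h percentiles were below both 0 h percentiles, in 1491 (43.3%) the ranges overlapped, and in 313 (9.09%) 1 h was above 0 h. Among the 72827 kept regions with peaks in both 0 h lists the corresponding shares were 19.3%, 57.4% and 23.3%. The difference remained at matched 1 h strength, where 37.0% of late losses and 25.5% of kept regions were already below 0 h in the step from 30 to 40, and 39.2% and 23.3% in the step from 40 to 50. These shares were not tested, because the 0 h to 1 h step and the 1 h to 24 h step share the 1 h libraries.

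The strongest losses give the range of these histories. Positions are on hg19, the build of the lists, and no gene is named because no annotation of that build was used. The leading loss by 1 h strength was chr22:46865619-46865883, at percentiles 82.4 and 84.3 in the 0 h libraries and 76.9 and 80.9 in the 1 h libraries, with 21 and 23 tags at its 1 h summits and no peak in either 24 h list. At chr2:61273084-61273533 the 0 h percentiles were 96.1 and 78.5 and the 1 h percentiles 86.4 and 68.0. Replicates of one time differ there by about as much as the times do. At chr11:15331179-15331578 the percentiles were 77.8 and 82.3 at 0 h, then 60.9 and 92.5 at 1 h, again overlapping. The region chr18:24268199-24268544 had been higher in rank at 1 h than at 0 h, with 52.6 and 52.3 at 0 h, then 79.6 and 68.0 at 1 h, before its peak was missing at 24 h. By contrast chr6:48884250-48885217 descended at each time: 99.4 and 98.5 at 0 h, with 87 and 55 tags, then 68.0 and 77.6 at 1 h, with 18 and 22 tags, then no peak. It is open at 1 h by the rule used here, with its rank and tags already below both 0 h libraries.

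Regions called at 1 h only were weaker. The strongest of them was chr2:214360917-214361262, at 60.9 and 56.8, with 16 and 15 tags. The next were chrX:106736395-106736700, at 52.4 and 64.6, and chr18:38440218-38440523, at 47.5 and 60.9. Of the losses with a peak in one 0 h list, the leading one was chr10:12827587-12827852, at 24.6 in a single 0 h library and at 71.2 and 52.4 in the 1 h libraries. It ranked higher at 1 h than at 0 h and had no peak at 24 h.

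Gains were mostly regions without a call at 0 h. Of the 3374 gained regions, 2247 (66.6%) held a peak in neither 0 h list, 718 (21.3%) in one and 409 (12.1%) in both. Among all 87287 regions open in both 24 h lists, 6.53% were in neither 0 h list and 86.5% in both. Gained regions lack a 1 h peak by definition and were weak, whereas 77985 of the 87287 were kept regions. No comparison at matched 24 h strength was made, so the part of the rule and of strength in this contrast was not tested. The 409 had a peak at 0 h, none in either 1 h list and one again in both 24 h lists. Gained regions were of modest size: the 2247 in neither 0 h list had median percentiles of 25.3 and 28.3 at 24 h. Their summits held a median of 11 and 10 tags, so a missing call at 0 h or 1 h does not show that they were closed. Of the 69 strong gains, 51 were absent at 0 h, 11 were in one 0 h list and 7 in both.

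The leading gains without a 0 h call were chr13:43260446-43260707, at 90 and 77.7 in the 24 h libraries with 25 and 18 tags, and chr17:61289391-61289748, at 83.5 and 83.2 with 22 and 20 tags. The others named by the same rule were chr6:76100934-76101369 at 80.9 and 84.7, chr13:73011673-73012180 at 88.2 and 67.5, and chr11:99456424-99456707 at 76.4 and 78.8. None of these 5 had a peak in any of the 4 earlier lists. The 3 leading regions that reappeared ranked higher at 24 h than they had at 0 h. At chr5:126632111-126632386 the percentiles were 25.8 and 33.4 at 0 h, then 78.1 and 80.2 at 24 h. At chr14:66950133-66950424 they were 25.8 and 15.3 and then 71.9 and 83.2, and at chr15:39534591-39534894 they were 43.7 and 24.6 and then 78.1 and 71.1. The rule picks regions by their 24 h strength, so the order 24 h above 0 h describes these 3 and not all 409.

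**Figure D2:**
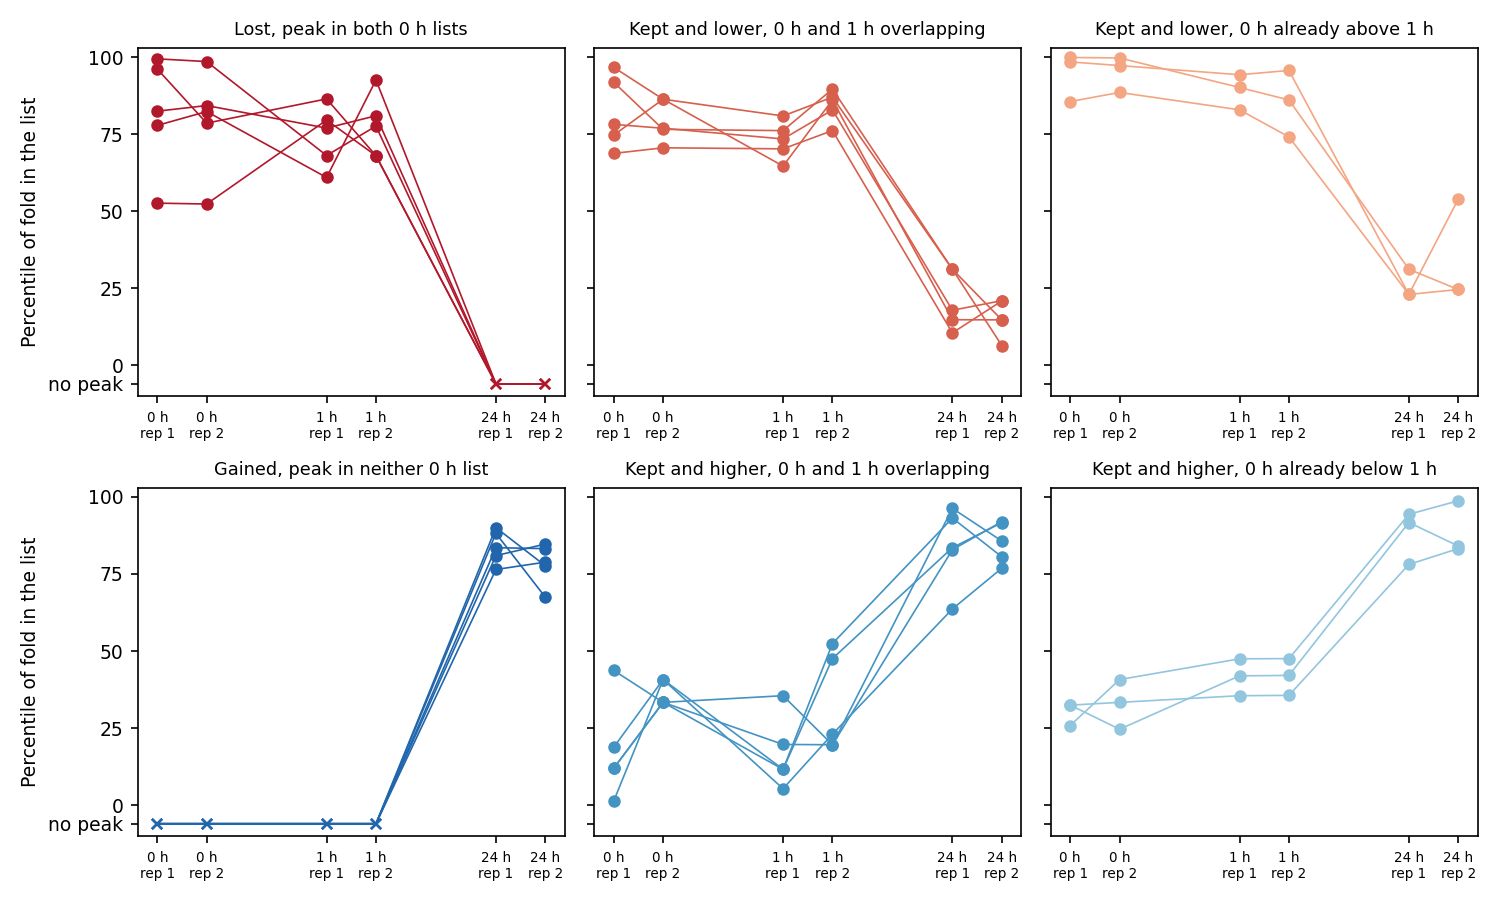
Within-list percentile of fold in each of the 6 libraries (points, joined by a line per region) for the leading regions of 6 classes, with crosses at the foot for libraries without a peak. The lost and lower regions stand above 50 in every 0 h and 1 h library, and the gained ones have no peak before 24 h.

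Regions called at 1 h and in neither 0 h list were lost by 24 h more often than regions called in both 0 h lists. They are named newly opened here, though a missing 0 h call does not show that they were closed. Choosing regions by a call at 1 h and none at 0 h favours weak regions, whose calls vary between lists. Matching on 1 h strength does not undo that choice, and its part in the loss was not tested. There were 3704 regions with a peak in both 1 h lists and neither 0 h list. By 24 h, 1108 of them (29.9%) were lost, 1074 were in one 24 h list and 1522 (41.1%) were kept. Of the 83499 regions open in both 0 h and both 1 h lists, 4.12% were lost and 87.2% kept, and of the 7294 in one 0 h list 21.3% were lost. At matched 1 h strength the share lost was again higher in newly opened regions in each of the 6 steps with at least 20 of them. It was 42.0% against 13.4% in the weakest step, 39.9% against 19.6% from 10 to 20, 32.1% against 15.2% from 20 to 30, 19.3% against 10.3% from 30 to 40, 7.46% against 5.11% from 40 to 50 and 4.95% against 1.78% from 50 to 60. Above 60 there were under 20 newly opened regions in each step.

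Over all 3704 newly opened regions, with a missing 24 h peak ranked at 0, the mean percentile was 23.4 and 25.9 in the 1 h libraries and 17.6 and 22.6 in the 24 h libraries. For the 83499 regions open at 0 h it was 59.1 and 60.9, then 52.7 and 56.9. Both sets have a peak in both 1 h lists by definition, so a missing peak could lower only the 24 h means. The lower 24 h means are therefore given as values and not read as a fall. Within the newly opened set, 369 regions (9.96%) had both 24 h percentiles at least 10 points above both 1 h percentiles, against 2.84% of the regions open at 0 h. The share at least 10 points below was 23.3% against 12.2%. At matched 1 h strength the share above was 10.4% against 7.76% from 10 to 20, 9.47% against 5.71% from 20 to 30, 7.98% against 4.83% from 30 to 40 and 12.2% against 4.22% from 40 to 50. The share below can count regions without a 24 h peak as falls. Among kept regions alone it was 2.17% for newly opened regions against 7.51% for those open at 0 h, the other way round. The share above was 24.2% against 3.25% among kept regions. None of these shares was tested.

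The 1522 that were still called in both 24 h lists are survivors of that loss, and their values are given as a description. Their median percentiles were 28.0 and 30.4 in the 1 h libraries and 38.6 and 41.6 in the 24 h libraries. Regions that fell out of a 24 h list are not among them, which removes more of this set (41.1% kept) than of the regions open at 0 h (87.2% kept). For the 72827 kept regions open in both 0 h lists the medians were 66.7 and 68.7, then 63.1 and 67.5 at 24 h. Strong peaks made up 3.09% and 7.82% of the 1522 at 1 h, then 23.3% and 25.4% at 24 h. Their tags changed little, with a median of 11 and 12 at the summit at 1 h, then 12 and 12 at 24 h. The regions open at 0 h had 28 and 29 tags at 1 h, then 24 and 23 at 24 h, with the lower implied depth of the 24 h libraries noted above. The most common background at a summit was 1.4 and 1.38 tags at 1 h, then 1.08 and 0.958 at 24 h. Median fold over background in the 1522 was 4.58 and 4.64 at 1 h, then 5.78 and 5.62 at 24 h. In the regions open at 0 h it was 7.77 and 8.04, then 8.07 and 8.17. A gain in rank is relative to other regions of the same library, and a gain in absolute accessibility cannot be told apart from it here.

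**Figure D3:**
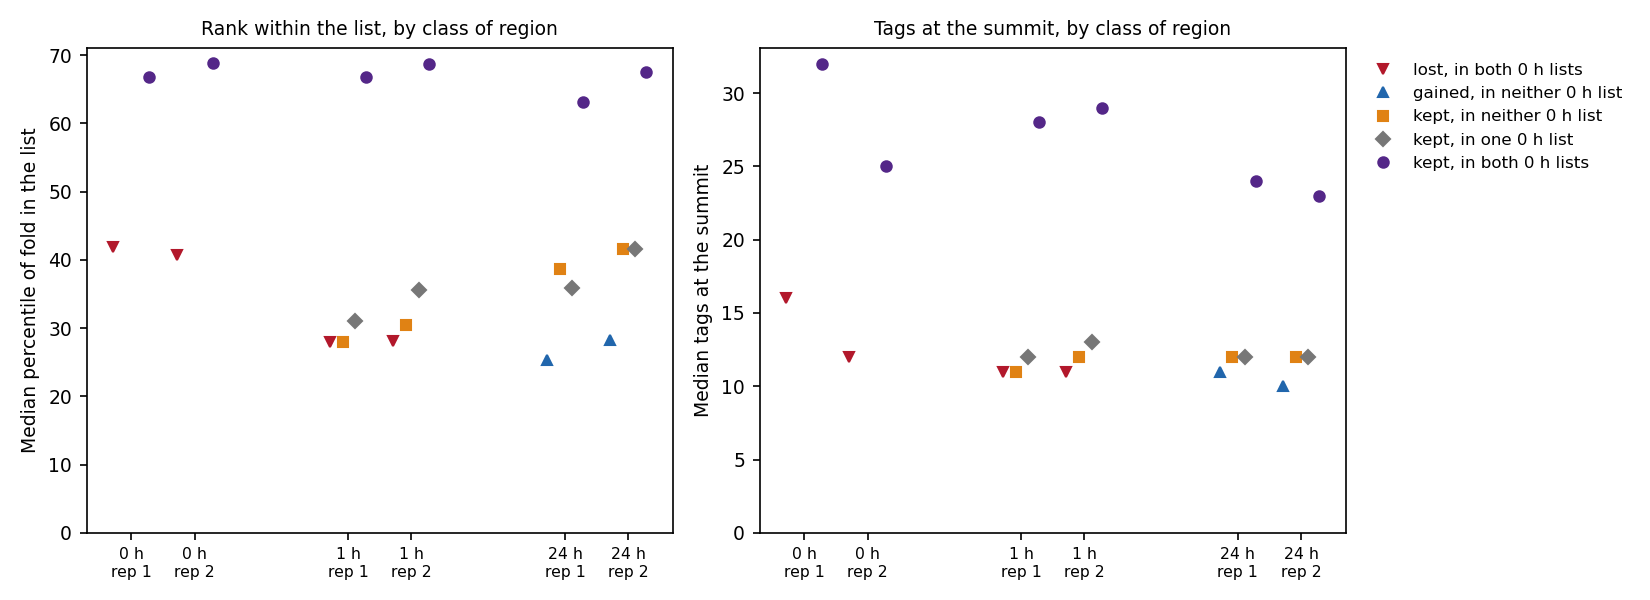
Median within-list percentile of fold (left) and median tags at the peak summit (right) in each library for lost regions with a peak in both 0 h lists, gained regions with a peak in neither, and kept regions by the number of 0 h lists that hold them. Kept regions absent at 0 h stand at 28.0 and 30.4 at 1 h and at 38.6 and 41.6 at 24 h, with 11 to 12 tags; those missing from a 24 h list are not included.

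**Figure D4:**
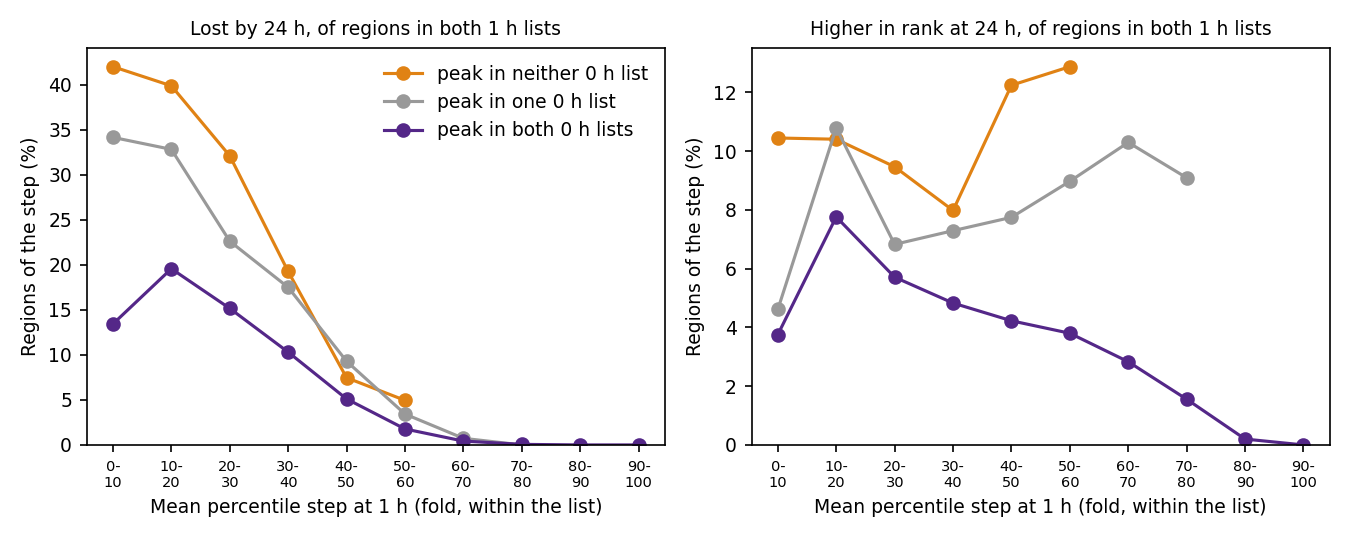
Share of regions lost by 24 h (left, of regions in both 1 h lists) and share higher in rank at 24 h by at least 10 points (right, of the same regions, a missing 24 h peak ranked at 0), by step of mean 1 h percentile and by the number of 0 h lists with a peak; steps with under 20 regions are not drawn. In each step where both are drawn, regions with a peak in neither 0 h list lie above regions with a peak in both.

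For single kept regions the replicates set a limit. The percentile of a kept region differed with an SD of 13 points between the 1 h replicates and 14.3 between the 24 h replicates, and with 15.5 to 16.4 points across the 4 pairs of libraries of different times. In limma, fitted to the percentiles of all 77985 kept regions, 0 regions were lower and 0 higher at a Benjamini-Hochberg adjusted p under 0.05, and the lowest adjusted p was 0.344. At an unadjusted p under 0.05 there were 5751 lower and 3574 higher. Kept regions were therefore described by a gap: both 24 h percentiles at least 10 points beyond both 1 h percentiles. By this rule 5671 regions were lower (7.27%) and 3313 higher (4.25%). The balance of the 2 directions depended on the scale, 1.71 lower to 1 higher within the whole lists, 0.981 (4884 and 4979) when ranked among kept regions, and 0.989 (4233 and 4279) with lists of one length. No excess of lower regions is therefore stated. Without 1 library the rule is looser and the counts ran from 10455 (without 1 h replicate 2) to 16303 (without 24 h replicate 2) for lower and from 6355 (without 24 h replicate 2) to 10171 (without 24 h replicate 1) for higher.

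The shifted regions differed in starting strength. The 5671 lower regions had median percentiles of 64.6 and 64.6 at 1 h, the level of kept regions as a whole, and 34.9 and 38.1 at 24 h. Regions strong in both libraries numbered 3693 of them (65.1%) at 1 h and 1009 (17.8%) at 24 h. The 3313 higher regions started at 35.5 and 38.2 and reached 65.1 and 66.3, and strong ones went from 738 (22.3%) to 2149 (64.9%). These values follow from the rule and describe the size of the shifts.

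The 0 h percentiles divided shifts by whether 0 h and 1 h were already apart. Of the lower regions, 2343 (41.3%) had overlapping 0 h and 1 h percentiles, which means that no earlier move was resolved with 2 libraries a time. That count came to 868 when 0 h replicate 1 was left out, to 938 when 0 h replicate 2 was, and to 25.6% and 28.1% of lower regions with a separate 1 h library for each step. In 1291 (22.8%) 0 h was already above 1 h, in 1833 (32.3%) 0 h was below 1 h, and 204 (3.6%) were not in both 0 h lists. Of the higher regions, 1129 (34.1%) had overlapping 0 h and 1 h percentiles, 499 (15.1%) had 0 h below 1 h, 742 (22.4%) had 0 h above 1 h and 943 (28.5%) were not in both 0 h lists. Over all kept regions these shares were 53.6% overlapping, 18.0% with 0 h above 1 h, 21.8% with 0 h below 1 h and 6.61% not in both. Read this way, the reversals (up and then down, or down and then up) are above their background. That reading does not hold when each step has a 1 h library of its own. With one 1 h library for the 0 h step and the other for the 24 h step, up and then down made up 28.6% and 31.6% of lower regions, below the 32.9% and 35.8% of all kept regions. Down and then up made up 24.2% and 20.1% of higher regions, below 32.4% and 27.6%. A continued fall remained above its background, at 40.5% and 35.5% of lower regions against 32.4% and 27.6%. A continued rise did not separate, at 29.7% and 37.5% of higher regions against 32.9% and 35.8%.

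The larger the fall after 1 h, the more often 0 h was already above 1 h. Among regions with any gap between the times, 17.1% of the 20412 lower ones had 0 h already above 1 h. At a gap of at least 20 points this was 29.4% of 1614, at 30 points 33.6% of 405, and at 40 points 38.1% of 97. With a separate 1 h library for each step the share went from 34.8% of regions with any gap to 53.8% of 325 at 40 points, and, with the 1 h libraries exchanged, from 30.5% to 47.0% of 298. Among higher regions no such course was seen with separate libraries: the share with 0 h already below 1 h was 32.2% with any gap and 21.8% at 40 points, or 36.9% and 37.2% with the libraries exchanged. Up to 46.0% of the higher regions at 40 points lacked a peak in a 0 h list and enter neither share as a rise.

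**Figure D5:**
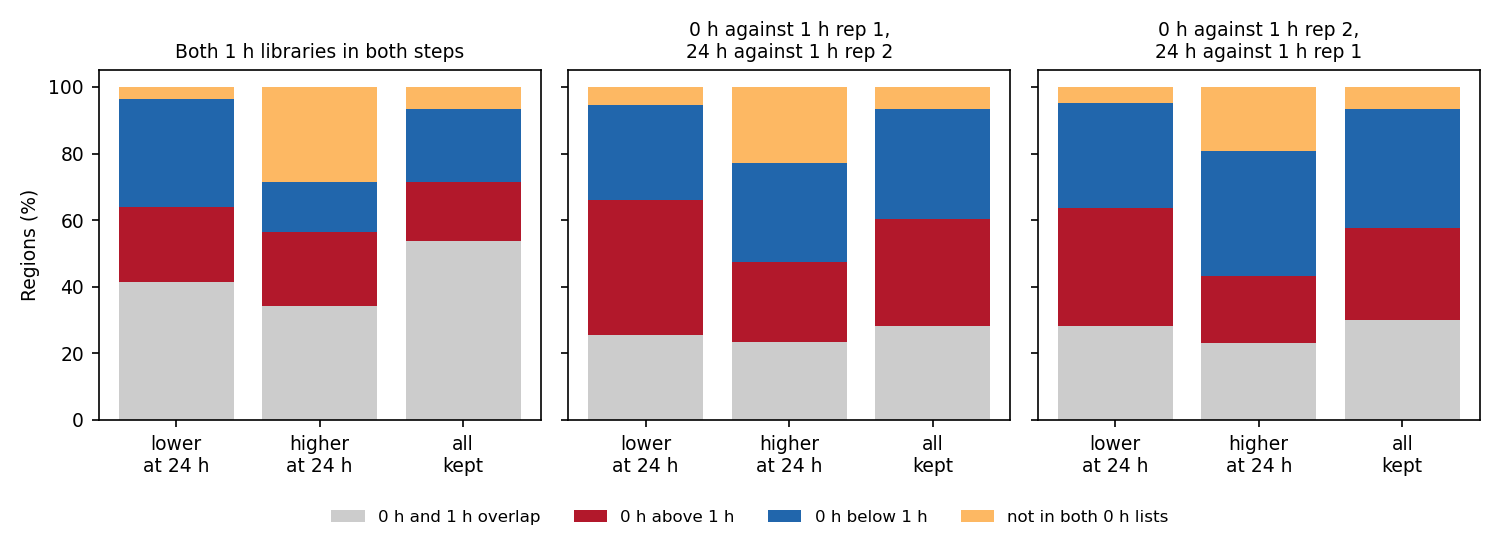
Make-up of the kept regions lower at 24 h, higher at 24 h and of all kept regions by their 0 h state, with both 1 h libraries used in both steps (left) and with a separate 1 h library for each step (middle and right). Regions below 1 h at 0 h are 32.3% of the lower set against 21.8% of all kept on the left, and 28.6% against 32.9% in the middle panel.

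Single regions show each course. The largest fall with overlapping 0 h and 1 h percentiles was at chr1:190637024-190637482, with percentiles of 96.6 and 86.3 at 0 h, next 80.9 and 87.0 at 1 h, then 31.2 and 6.44 at 24 h. Its summits held 24 and 29 tags at 1 h, then 10 and 6 at 24 h. At chr11:18084619-18085100 the percentiles were 74.7 and 86.3, then 64.6 and 86.1, then 14.8 and 14.7. At chr9:111822368-111823250 they were 78.2 and 76.9, then 73.4 and 82.8, then 17.9 and 21.0. In each of these the 0 h and 1 h libraries overlap and both 24 h libraries lie far below. The other 2 regions named by the rule, chr11:132574694-132575598 and chr1:27240405-27241126, had 24 h percentiles of 31.2 and 14.7, and of 10.5 and 20.9.

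A continued fall was steepest at chr4:92761506-92761972. It was among the strongest regions of the 0 h libraries, at 99.8 and 99.7 with 92 and 66 tags, stood at 90.1 and 86.1 with 27 and 25 tags at 1 h, and at 31.2 and 24.6 with 10 and 8 tags at 24 h. At chr3:106417911-106418374 the percentiles were 98.4 and 97.2, then 94.2 and 95.6, then 23 and 53.9. At chr2:98051024-98051546 they were 85.6 and 88.5, then 82.9 and 74.1, then 23 and 24.6. Ranks are compressed at the top of a list, and in the first of these regions more tags were missing between 0 h and 1 h than between 1 h and 24 h although the change in rank was smaller. Of the regions that had ranked lower at 0 h than at 1 h, chr6:90417802-90418698 led, at 55.8 and 58.5, then 73.0 and 79.5, then 14.8 and 6.44.

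Rises after 1 h were led by chr9:72334216-72334716, at 12.0 and 33.4 at 0 h, next 19.7 and 19.6 at 1 h, then 96.3 and 85.7 at 24 h, with 9 and 9 tags at 1 h, then 30 and 21 at 24 h. At chr21:41272459-41272770 the percentiles were 43.7 and 33.4, then 35.5 and 19.6, then 82.9 and 92. At chr12:87821561-87821908 they were 18.8 and 40.8, then 11.6 and 47.5, then 83.5 and 91.6. Here the tags themselves were higher despite the lower implied depth at 24 h. They went from 11 and 9 to 23 and 25 in the second region and from 8 and 13 to 22 and 24 in the third. A rise that had begun by 1 h was largest at chr7:121522671-121523164, at 25.8 and 40.8, then 47.5 and 47.5, then 94.3 and 98.7, with 11 and 10, then 13 and 13, then 28 and 35 tags. At chr10:54300865-54301271 the percentiles were 32.5 and 24.6, then 42.0 and 42.1, then 91.7 and 84.1. A dip at 1 h preceded the rise at chr8:48190731-48191107, at 52.6 and 40.8, then 28.0 and 28.0, then 83.5 and 87.9. Of the kept regions absent at 0 h, the rule named chr7:94926290-94926606 among the higher ones, at 11.6 and 11.3 at 1 h, then 78.1 and 71.1 at 24 h.

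Kept regions were also narrower at 24 h as a whole. The median ratio of widths was 0.870 to 0.90 across the 4 pairs of a 24 h with a 1 h library, and 0.974 and 0.999 between replicates of the same time. The 24 h lists have the shorter minimum peak and the lower implied depth given above, and their part in this was not tested. In limma on the percentile of width 0 regions were narrower and 0 wider (lowest adjusted p = 0.374; 4965 and 2044 at an unadjusted p under 0.05). Leaving out 24 h replicate 2 gave 125 narrower regions. By a gap of 10 points of width percentile, 4545 were narrower (5.83%) and 2546 wider (3.26%). Width and strength moved together: 17.4% of the lower regions were narrower and 18.7% of the higher regions wider. The region with the largest loss of width, chr7:121221760-121222796, measured 1037 and 857 bp at 1 h, then 147 and 136 bp at 24 h, where 147 and 136 bp are the shortest peaks those lists hold. Its tags were already fewer at 1 h, with 64 and 38 tags at 0 h, next 16 and 17 at 1 h, then 8 and 7 at 24 h. The next, chr21:28526830-28527950, went the same way, with 56 and 45, then 13 and 11, then 8 and 7 tags. The region that widened most in rank, chr4:89068815-89069404, measured 172 and 170 bp at 1 h, then 590 and 449 bp at 24 h.

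Summit positions differed between the times about as often as between replicates. Between the replicates of a time, 17.9% (1 h) and 15.8% (24 h) of kept regions had summits over 100 bp apart, and across times 16.1% to 19.5%. Both 24 h summits lay at least 100 bp to one side of both 1 h summits in 1933 regions (2.48%), with a median gap of 151 bp. Such displacement was counted in 2.10% of the 71234 regions with a single peak in each library and in 6.46% of the others. Of the 1837 displaced regions in both 0 h lists, both 0 h summits lay nearer the 1 h position in 510 (27.8%) and nearer the 24 h position in 604 (32.9%). The largest gaps were 1304 bp at chr17:73029738-73031809, 1022 bp at chr17:61522957-61525238 and 891 bp at chr4:103265184-103266871. Strength overlapped between the times in the first of these, at 54.9 and 53.5 at 1 h, then 42.6 and 57.1 at 24 h.

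Late changes were spread over the genome. Every autosome and X held lost and gained regions. The share lost ran from 3.63% on chromosome 19 to 7.56% on X, and the share gained from 2.05% on chromosome 19 to 5.18% on chromosome 13. Of 2888 windows of 1 Mb with a region, 2436 held a loss and 1813 a gain, and no window held more than 10 losses or 7 gains. Losses had no more losses near them than kept regions did: 22.4% of lost and 22.3% of kept regions had another lost region within 50 kb. Gains had another gain within 50 kb in 16.3% of cases, against 14% for kept regions, and higher regions had another higher region within 50 kb in 17.7% against 14.2%.

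A few windows changed in one direction. The window chr4:67000001-68000000 held 7 gained and 0 lost regions, all 7 absent at 0 h. Regions with a peak numbered 14 and 13 there at 0 h, next 15 and 19 at 1 h, then 27 and 26 at 24 h, so both 24 h libraries stood above the other 4. In chr4:35000001-36000000 the counts were 15 and 13, 16 and 20, then 23 and 27, with 7 gained and 2 lost. On the other side, chr7:16000001-17000000 held 9 lost and 0 gained regions, with 66 and 60 regions at 0 h, next 61 and 71 at 1 h, then 44 and 51 at 24 h. The window chr8:85000001-86000000 also held 9 lost and 0 gained regions, with 24 and 25, then 30 and 29, then 18 and 20. These windows head a ranking over 2888 and are described without a test.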

How the data were processed

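ATAC-seq was measured in 22Rv1 cells labelled FOXA1_dTAG at 0, 1 and 24 h, with 2 libraries per time. The build hg19 and the tools MACS2, Bowtie2, fastp and FastQC are named in the submitters' processing notes. Versions, parameters, read shifting and duplicate removal are not given in the sources used here. Peak calls were deposited by the authors as 1 list per library, with replicates not pooled. Each deposited list gives per peak a fold ratio of summit signal over local background, a −log10 p and a −log10 q, and a score that was not used. The summit's distance from the peak start is also as deposited by the authors. All listed peaks had a q under 0.05.

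Peaks on autosomes and X were merged at 1 bp of overlap, with the strongest peak standing for a region in each library. Fold was ranked within its list. Tags at a summit were recovered from the deposited fold and −log10 p, and came out whole for 100% of peaks. Total read depth is unknown. Kept regions were fitted with limma 3.58.1 in R 4.3.3 (lmFit, eBayes with trend, 2 against 2 libraries, Benjamini-Hochberg threshold 0.05). Because it called fewer than 20 regions in a direction, the planned fallback of a gap of at least 10 percentile points was used, for width as well. Single values per library were compared by exact permutation in scipy 1.17.1. Scripts were tested on simulated data.

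Named regions are the strongest lost and gained regions and the largest shifts of rank, width or summit in each 0 h class, 5 where 0 h matched 1 h (in presence, or by overlapping percentiles) and 3 in each other class, of which a selection is printed. The labels do not say whether replicate numbers pair the libraries. Deviations of same-numbered libraries correlated at 0.0414, 0.0467 and 0.0168 across the 72827 kept regions in both 0 h lists. No pairing was therefore used in the main comparison. No list repeats another, and any pair of lists shares 25 identical intervals or fewer. The members, rules and lists were chosen with earlier results of these data known. Steps of strength, matched comparisons, windows and separate 0 h shares were added while the data were being described. Alternatives are given in the closing section.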

Additional observations from a re-analysis of the deposited data

How the results depend on the processing

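Counts of presence depended most on the definition. With a strong peak against no peak, 46 regions were lost, all 46 open at 0 h, and 69 gained, 51 of them absent at 0 h. With presence defined as coverage of 50% of a region, losses came to 10858. The count of lower regions with overlapping 0 h and 1 h percentiles was 3525 with a 5-point gap required between 0 h and 1 h, and that of higher ones was 2087 ranked among kept regions, 1716 with a normal score and 2069 with 0 h set against 1 h replicate 2 and 24 h against 1 h replicate 1. Displaced summits numbered 6218 at 50 bp and 652 at 200 bp. With the replicate block, limma again called 0 kept regions, and the gap taken within each replicate number gave 3912 lower and 1970 higher regions of that kind. Whether the numbers pair the libraries is not given by the labels.

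Leaving out a 1 h or 24 h library loosens the rules to the libraries left, and leaving out a 0 h library makes an overlap with 1 h harder to meet. Lost regions then ran from 9455 (without 24 h replicate 1) to 16913 (without 1 h replicate 1), gained from 5775 (without 1 h replicate 1) to 13786 (without 24 h replicate 1), late losses open at 0 h from 4163 to 8353, and gains absent at 0 h from 2565 to 10007. Lower regions with overlapping 0 h and 1 h percentiles ran from 868 (without 0 h replicate 1) to 7811 (without 24 h replicate 2), higher ones from 460 (without 0 h replicate 1) to 4045 (without 24 h replicate 1), and displaced summits from 5646 to 7486. Narrower regions in limma ran from 0 to 125, the latter without 24 h replicate 2. The difference in peaks per library ran from -12546.5 to 60.5, so its sign turned without 24 h replicate 1. The share lost was higher in regions absent at 0 h than in those open at 0 h under all 9 alternatives, 5.01 to 9.41 times. The share higher in rank was so under all 10 of its alternatives. The share lower in rank was so under 1 of 10, the one that ranks a missing 24 h peak at 0. The other alternatives for both rank shares were taken among kept regions, the survivors of the loss. They share that selection and are not separate support. All alternatives for the shares lost, higher and lower were chosen after seeing the data. So were the comparisons that rank a missing 24 h peak at 0 or use a separate 1 h library by size of gap. The libraries left out for values per library and the settings of the gap counts were also chosen then. The 2 libraries per time limit every comparison, and weak regions rest on about 10 tags each, so absence of a peak is absence of a call and not of accessibility.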
